A study of Mus musculus with 5 samples.

Results

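The RGS genes encode regulators of G-protein signalling, and 9 of them (Rgs1, Rgs2, Rgs3, Rgs10, Rgs12, Rgs14, Rgs16, Rgs18 and Rgs19) were followed over 5 arrays of 32D cells. Every probe set that the platform annotation maps to one of these symbols was taken, which gave 21 of the 45101 probe sets on the array. The 9 genes were chosen by their RMA values on these same 5 arrays, from earlier results, so the values are given as a description and nothing is tested on them. 32D is a mouse myeloid progenitor line that normally needs interleukin-3. The cells carried 1 of 5 stably integrated retroviral constructs of FLT3-ITD, a receptor tyrosine kinase made active without ligand by an internal tandem duplication. The labels call the constructs ITD613, ITD78, ITD598, ITD602 and ITD611 and do not explain the numbers, name the species of FLT3, or say whether a line was a clone or a pool. All 5 cultures shared 3 h of starvation and then 1 h with a tyrosine kinase inhibitor (TKI) that is not named, and no array without a construct or without the inhibitor was analysed here. Each construct had 1 array, so there is no replicate error, no p-value and no test below, and every difference compares arrays.

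RGS proteins speed up GTP hydrolysis by G alpha subunits and so end the signal of G-protein-coupled receptors. In blood cells they are best known for damping chemokine, platelet agonist and lipid mediator receptors. Several of them are themselves induced or lost quickly when receptors or kinases are stimulated, and family members differ in the G alpha subunits they act on.

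The upstream sequences of Rgs2 and Rgs10, whose ITD613 values lay furthest below and above the other arrays, are shown with that of Rgs3, which held a match to a searched motif. They are the 250 bases before the RefSeq transcript start in GRCm38.p6, 5′ to 3′ on the gene's strand, with the match in capitals.
Rgs2, chr1:144004150-144004399, minus strand: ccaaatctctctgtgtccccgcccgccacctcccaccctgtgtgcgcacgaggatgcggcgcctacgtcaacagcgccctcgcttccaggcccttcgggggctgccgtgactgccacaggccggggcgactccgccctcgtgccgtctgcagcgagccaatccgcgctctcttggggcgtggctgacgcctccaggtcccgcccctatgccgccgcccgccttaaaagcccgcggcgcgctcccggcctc
Rgs10, chr7:128418173-128418422, minus strand: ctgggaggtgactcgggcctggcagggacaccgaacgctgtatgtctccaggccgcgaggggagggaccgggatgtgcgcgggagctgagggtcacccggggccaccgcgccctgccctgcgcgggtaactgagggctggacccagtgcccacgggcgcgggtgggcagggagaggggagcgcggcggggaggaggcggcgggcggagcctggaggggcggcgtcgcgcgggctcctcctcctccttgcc
Rgs3, chr4:62619422-62619671, plus strand: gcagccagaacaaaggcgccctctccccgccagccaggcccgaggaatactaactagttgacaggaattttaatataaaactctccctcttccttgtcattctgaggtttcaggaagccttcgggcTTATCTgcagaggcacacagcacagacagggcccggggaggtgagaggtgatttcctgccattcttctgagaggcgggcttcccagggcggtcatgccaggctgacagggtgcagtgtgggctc

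Of the 9 genes, 6 had such an entry, with 10 windows between them; Rgs1, Rgs14 and Rgs18 are named only. Both strands were searched for 4 motifs, which do not contain one another. The match in the Rgs3 window, AGATAA on the other strand (a motif of GATA factors, which here starts at base -124 from the transcript start), was the only match in the 10 windows, and 9.99% of all 32851 windows of this length held these letters. The STAT palindrome, TTCNNNGAA, was in 0 of the 10 windows and in 7.02% of all windows. The cAMP response element, TGACGTCA, was in 0 of the 10 and in 1.55% of all. The E-box of MYC and its relatives, spelt CACGTG, was in 0 of the 10 and in 6.02% of all. The GC content was 72.4% in the Rgs2 window and 76.4% in the Rgs10 window, and the 10 RGS windows ran from 48.4% (Rgs3) to 76.4%, where the median over all windows was 52.4%. A match is a string of letters and not a measured site, and a window without one says nothing about a factor.

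The deposited values are log2 values made by the authors with RMA, and a difference of 1 is 2-fold. The highest value shared by at least 100 probe sets of an array was 3.74, and values up to there are called the low range, where a difference cannot be sized. The probe set with the highest mean stood for its gene, and a gene passed the low-value filter where its highest value reached 2.75, the 60th percentile of all values. This kept 9621 genes and 7 of the 9 RGS genes. Of the 21 RGS probe sets, 11 reached the filter value and 10 stayed in the low range on all 5 arrays. Rgs12, a large RGS protein that also binds Ras and Raf, had 3 probe sets with values between 1.25 and 2.43. Rgs16, which acts on Gi and Gq classes of G alpha, had 3 between 0.79 and 1.62. Neither gene was measured above the low range on any array, which does not show that it was silent.

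Of 12 myeloid progenitor markers 7 passed the filter, among them Ctsg, Prtn3 and Csf2rb, while Kit read at most 0.92 and Cd34 at most 0.67. Of the other markers, 0 of 4 lymphoid, 0 of 5 fibroblast and 1 of 3 endothelial genes passed (Pecam1, 3.37 to 4.16). A date-like string in the array titles is shared by 4 arrays and differs for ITD602, so what it marks and the construct cannot be told apart there.

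**Figure D1:**
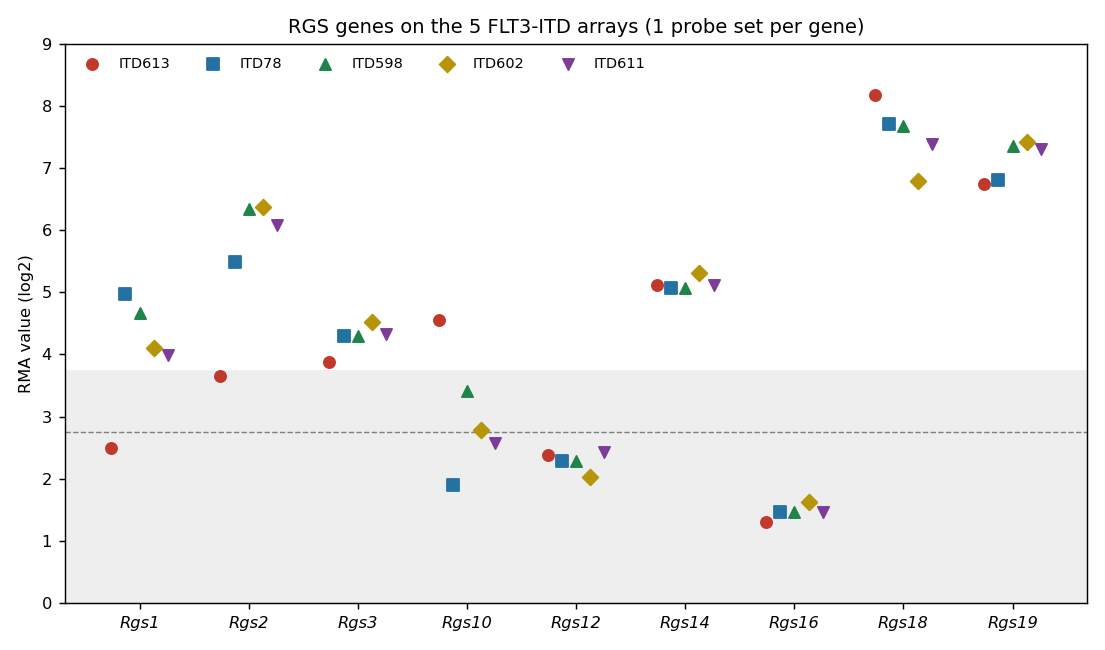
RMA values (log2) of the 9 RGS genes, 1 probe set per gene, with 1 point per array in the order ITD613, ITD78, ITD598, ITD602, ITD611. The grey band is the low range up to 3.74 and the dashed line the filter value of 2.75. ITD613 is the lowest point for Rgs1 and Rgs2 and the highest for Rgs10 and Rgs18.

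Rgs2, Rgs1 and Rgs10 were the RGS genes on which ITD613 stood apart. Rgs2 and Rgs1 were lower on ITD613 than on every other array by at least 2-fold and Rgs10 was higher, which is 3 of the 7 genes that passed the filter. With all values raised to at least 3.74 only Rgs2 remained 2-fold apart. Over all 9621 genes, 2.23% were apart on ITD613 in either direction, 1.31% higher and 0.925% lower. The RGS genes were listed from these same arrays, so nothing is read from the difference in shares. A range of at least 2-fold over the 5 arrays was seen for 4 of the 7, against 10.4% of all genes, and without the ITD613 array the count was 1, Rgs10, whose values on the remaining arrays are all in the low range. The median range was 1.37 for the 7 genes and 0.43 for all. Set against the mean of the other 4, ITD613 differed by a median of -0.47 over the 7 genes and of 0.01 over all genes. In bulk RNA, fewer cells expressing a gene and less RNA per cell cannot be told apart.

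Rgs2, a small RGS protein that acts mainly on the Gq class and is known as an early response gene, read 3.66 on ITD613, 5.49 on ITD78, 6.34 on ITD598, 6.37 on ITD602 and 6.08 on ITD611 (probe set 1419247_at). ITD613 was low and ITD78 was next, below the other three, which lay close together. ITD613 was 1.83 (log2) below ITD78, the nearest array, and its difference from the mean of the other 4 (6.07 ± 0.41, SD over arrays) was -2.41. In linear terms the ratio of ITD613 to ITD78 was 0.282 and that of ITD613 to ITD602 was 0.153. The distance from ITD78 ranked 10 of 9621 genes on the lower side of ITD613. The ITD613 value is itself in the low range, and with all values raised to at least 3.74 the distance from ITD78 was still 1.75.

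A second Rgs2 probe set gave the same order of ITD613, ITD78 and the rest. Probe set 1419248_at read 2.50 on ITD613, 4.83 on ITD78, 5.99 on ITD598, 5.93 on ITD602 and 5.91 on ITD611. Probe set 1447830_s_at read 1.71 on ITD613, 2.49 on ITD78, 3.83 on ITD598, 3.98 on ITD602 and 3.53 on ITD611, of which only ITD598 and ITD602 are above the low range, so ITD613 and ITD78 cannot be ordered by it. The fourth probe set, 1443250_at, lay between 1.81 and 1.90 on all arrays and carries no information on the order.

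Rgs1, which damps chemokine receptor signals through the Gi class in B and T cells, read 2.49 on ITD613, 4.97 on ITD78, 4.66 on ITD598, 4.10 on ITD602 and 4.0 on ITD611, from its only probe set (1417601_at). ITD613 was the single low array, while ITD78 was the highest and not intermediate as for Rgs2. ITD613 was 1.51 below ITD611, the nearest, and its difference from the mean of the other 4 (4.43 ± 0.46, SD over arrays) was -1.94. Because 2.49 lies in the low range and ITD611 only just above it, the distance was 0.26 with values raised to 3.74, so the size is not known. The difference of ITD613 from ITD78 was -1.23 with the same raising, still over 2-fold.

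Rgs10, a short RGS protein that is little more than its RGS domain and is abundant in platelets and microglia, read 4.55 on ITD613, 1.90 on ITD78, 3.41 on ITD598, 2.78 on ITD602 and 2.58 on ITD611 (1416882_at, its only probe set). ITD613 was the only array with a value above the low range, and the other 4 cannot be ordered. ITD613 was 1.14 above ITD598 and 1.88 above the mean of the other 4 (2.67 ± 0.62, SD over arrays), rank 74 of 9621 on the higher side. With values raised to 3.74 the distance was 0.81, so the gene is above the low range on ITD613 alone and its fold difference cannot be sized. Rgs10 passed the filter through ITD613, ITD598 and ITD602.

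**Figure D2:**
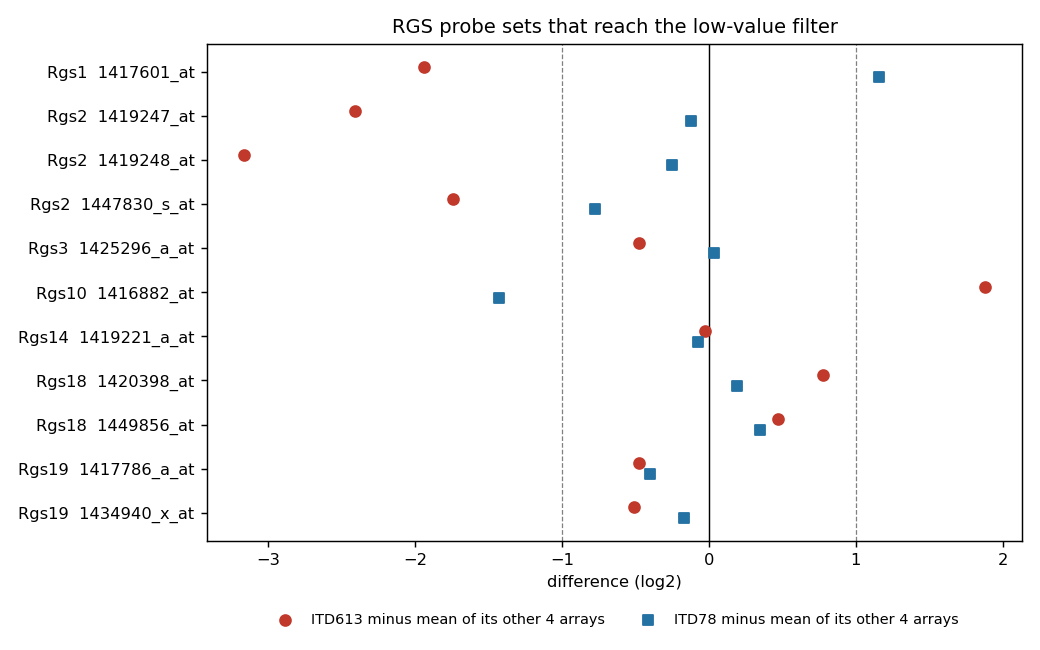
Differences (log2) of ITD613 (circles) and of ITD78 (squares) from the mean of their respective other 4 arrays, for the 11 RGS probe sets that reach the filter value. Dashed lines mark 2-fold. The 3 Rgs2 probe sets and the Rgs1 probe set lie beyond 2-fold below for ITD613. Rgs10 lies beyond 2-fold above for ITD613 and below for ITD78 (0.81 and -0.20 with low values raised to 3.74). Rgs1 lies beyond 2-fold above for ITD78 (1.16), whose other arrays include the low ITD613. With the same raising, the Rgs1 differences are -0.69 for ITD613 and 0.85 for ITD78.

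Rgs18 and Rgs19 had values far above the low range on every array and differed less. Rgs18, an RGS protein of megakaryocytes and platelets that acts on Gi and Gq classes, read 8.17 on ITD613, 7.71 on ITD78, 7.69 on ITD598, 6.80 on ITD602 and 7.39 on ITD611 (1420398_at). ITD613 was the highest array, by 0.47, and ITD602 the lowest, by 0.59, so the range of 1.37 also passed 2-fold. The second probe set, 1449856_at, read 7.68 on ITD613, 7.59 on ITD78, 7.30 on ITD598, 6.96 on ITD602 and 7.01 on ITD611. It kept ITD613 highest and ITD602 lowest, but ITD602 lay only 0.05 below ITD611 and the range was 0.72. Without the ITD602 array, 3 RGS genes and not 4 had a 2-fold range. ITD602 is also the array whose title has its own date-like string, so what that marks and the construct cannot be told apart here.

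Rgs19, also known as GAIP and a partner of the Gi class, read 6.75 on ITD613, 6.81 on ITD78, 7.35 on ITD598, 7.42 on ITD602 and 7.31 on ITD611 (1417786_a_at). ITD613 and ITD78 were together below the other three by at least 0.50, and they differed from each other by 0.06. Its second probe set, 1434940_x_at, read 5.95 on ITD613, 6.22 on ITD78, 6.63 on ITD598, 6.40 on ITD602 and 6.58 on ITD611, the same 2 arrays being lowest. The range was 0.68 on each probe set, under 2-fold.

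Rgs3 and Rgs14 varied least among the genes that passed. Rgs3, which acts on Gi and Gq classes and is made in several isoforms, read 3.89 on ITD613, 4.29 on ITD78, 4.29 on ITD598, 4.52 on ITD602 and 4.33 on ITD611 (1425296_a_at). ITD613 was lowest by 0.41, and the other 3 Rgs3 probe sets stayed between 1.64 and 2.35. Rgs14, which joins an RGS domain to Ras-binding domains and a G alpha i binding motif, read 5.11 on ITD613, 5.08 on ITD78, 5.08 on ITD598, 5.31 on ITD602 and 5.12 on ITD611, a range of 0.23. ITD613 lay inside the other arrays for Rgs14.

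With no replicates, the closeness of arrays over all genes serves as a yardstick for the order within each gene. The SD of the log2 differences over the 9621 genes was 0.18 for ITD598 minus ITD611, 0.22 for ITD602 minus ITD611 and 0.23 for ITD598 minus ITD602, and real differences between the constructs are included in it. It was larger for pairs with ITD78 (0.33 to 0.41 against those 3) and for pairs with ITD613 (0.42 to 0.63). Each step between neighbours in the order, on the probe set that stood for the gene, was set against the SD of its own pair. For Rgs2 the step between ITD602 and ITD598 (0.03) was smaller than it. For Rgs1 those between ITD78 and ITD598 (0.31) and between ITD602 and ITD611 (0.10) were smaller. For Rgs3 and Rgs14 every step was smaller, that of 0.41 down to ITD613 for Rgs3 included. For Rgs18 the step between ITD78 and ITD598 (0.02) was smaller, and that between ITD613 and ITD78 (0.47) was just above the SD of 0.42. On the second Rgs18 probe set, 1449856_at, the steps between ITD613 and ITD78 (0.10) and between ITD611 and ITD602 (0.05) were smaller. So was that from ITD78 (7.59) to ITD598 (7.30), a pair with an SD of 0.33. For Rgs19 those among ITD602, ITD598 and ITD611 (0.07 and 0.04) and between ITD613 and ITD78 (0.06) were smaller. On the second Rgs19 probe set, 1434940_x_at, every step was smaller. For Rgs10 the 4 arrays other than ITD613 are in the low range and were not ordered.

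**Figure D3:**
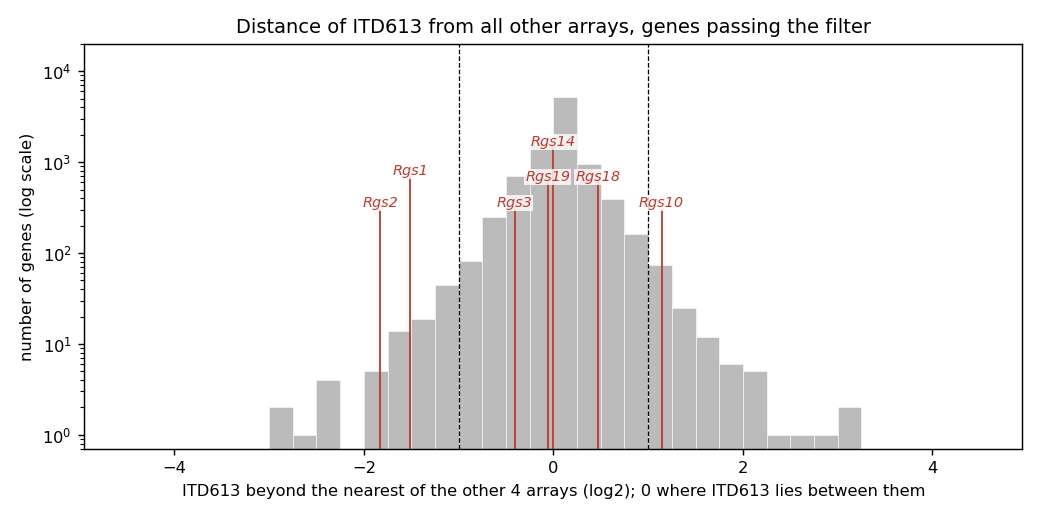
Histogram over the 9621 genes that pass the filter of how far ITD613 lies beyond the nearest of the other 4 arrays (log2, bins of 0.25; 0 where it lies between them; the count axis is logarithmic), with the 7 RGS genes as red lines. Rgs2 at -1.83, Rgs1 at -1.51 and Rgs10 at 1.14 lie outside the dashed 2-fold lines, and Rgs14 lies at 0.

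ITD78 set no RGS gene apart by 2-fold from every other array, in a comparison where 0.104% of all genes were apart. Leaving out ITD613 also gave 0 of 7, against 1.07% of all genes. On the probe sets that stood for the genes, Rgs10 came nearest. Its values on ITD78, ITD598, ITD602 and ITD611 are all in the low range, so their differences cannot be sized. The second Rgs2 probe set, 1419248_at, did set ITD78 apart once ITD613 was left out. It read 4.83 on ITD78, more than 2-fold below 5.99 on ITD598, 5.93 on ITD602 and 5.91 on ITD611, all above the low range. Probe set 1447830_s_at of Rgs2 did so too, but its values on ITD78 (2.49) and on ITD611 (3.53), the nearest, are both in the low range. Compared directly, ITD613 and ITD78 differed at least 2-fold in Rgs1, Rgs2 and Rgs10, 3 of 7 RGS genes, where 2.96% of all genes differed. The difference of ITD613 from ITD78 was -2.48 for Rgs1, -1.83 for Rgs2 and 2.65 for Rgs10. In each of these 3 one value lies in the low range, and with values raised to 3.74 the differences were -1.23, -1.75 and 0.81, so that Rgs10 no longer differed 2-fold. No RGS gene of the 7 differed 2-fold between ITD598 and ITD602, where 0.26% of all genes did, between ITD598 and ITD611 (0.125%) or between ITD602 and ITD611 (0.218%).

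The genes on chromosome 1 offer a comparison by place. In the RefSeq annotation of GRCm38.p6, Rgs2, Rgs13, Rgs1, Rgs21 and Rgs18 follow each other with no other protein-coding gene between them. The difference of ITD613 from the mean of the other 4 was -2.41 for Rgs2 and -1.94 for Rgs1, both lower. For Rgs18, at the end of the row, it was higher, by 0.78 and by 0.47 on the second probe set, 1449856_at. Rgs13 read at most 0.38, in the low range, and Rgs21 was not analysed here. On the flanks, Uchl5, a proteasome-bound deubiquitinase, read 8.75 on ITD613 and 8.59 to 8.85 on the other 4. Brinp3, next to Rgs18, read at most 0.86, in the low range. Pla2g4a, the cytosolic phospholipase A2 that releases arachidonic acid, read 7.58 on ITD613 and 7.84 to 7.94 on the others.

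**Figure D4:**
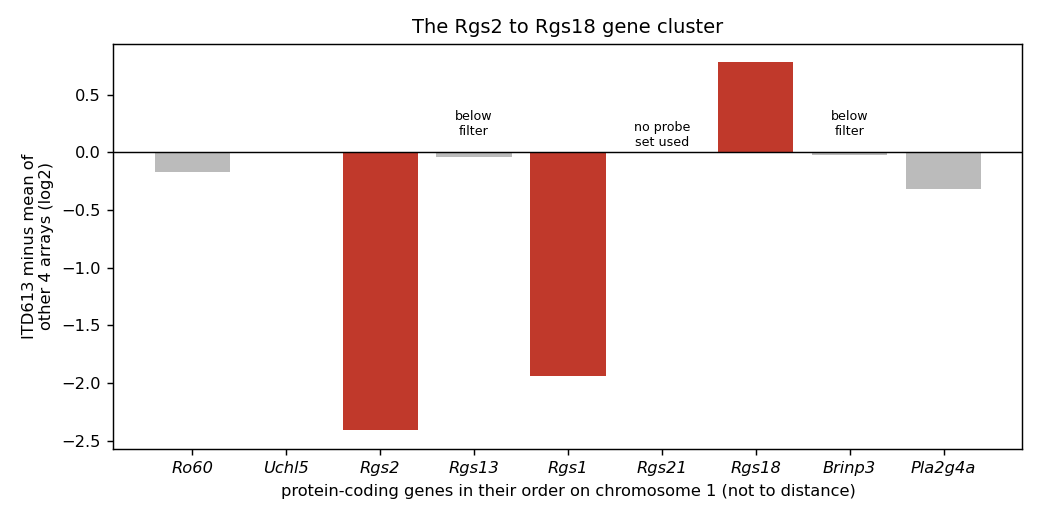
Difference of ITD613 from the mean of the other 4 arrays (log2) for protein-coding genes in their order along chromosome 1, evenly spaced and not to distance, with the followed RGS genes in red. Rgs2 and Rgs1 point down (-2.41 and -1.94) and Rgs18 up (0.78, and 0.47 on its second probe set, not drawn). Rgs13 and Brinp3 are below the filter.

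Genes with the profile closest to each RGS gene were sought among the 9621 by the root mean square (RMS) difference over the 5 arrays after each gene was centred on its own mean. For Rgs2 they were Epsti1 (RMS 0.11), Slco3a1, an organic anion transporter (0.17), and the mitotic kinase gene Nek6 (0.19). Epsti1 read 2.24 on ITD613, 3.97 on ITD78, 4.81 on ITD598, 4.93 on ITD602 and 4.86 on ITD611, with the same low and intermediate arrays, and all 4 of its probe sets had ITD613 below the mean of the others. Slco3a1 read 3.63 on ITD613, 5.02 on ITD78 and 5.82 to 5.98 on the other 3, and its 3 probe sets had the same sign. Rgs2, Epsti1, Slco3a1 and Nek6 (3.12) were all in the low range on ITD613, so how closely their drops there match is not known.

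For Rgs18 the closest were Esco2, a cohesin acetyltransferase (RMS 0.08), Lrif1 (0.11) and Ribc1 (0.11), each highest on ITD613. Esco2 and Lrif1 were lowest on ITD602. Ribc1 was in the low range on ITD602 (2.97) and ITD611 (3.60), which cannot be ordered. Esco2 read 7.99 on ITD613, 7.38 on ITD78, 7.28 on ITD598, 6.59 on ITD602 and 7.07 on ITD611. For Rgs1 the closest were Cirbp, a cold-inducible RNA-binding protein (0.29), Rprd2 (0.29) and Maff, a small MAF transcription factor (0.36). Cirbp read 4.63 on ITD613, 6.72 on ITD78 and 5.73 to 5.90 on the other 3, so it too was lowest on ITD613 and highest on ITD78. Rprd2 had 8 probe sets, and 4 of them had the sign of the one used. For Rgs10 they were Prg2, the eosinophil major basic protein (0.23), Mybl1, the transcription factor A-MYB (0.35), and Zbtb26 (0.38). Like Rgs10, each of these 3 was above the low range on ITD613 alone, and for Zbtb26 the second of its 2 probe sets had the opposite sign.

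**Figure D5:**
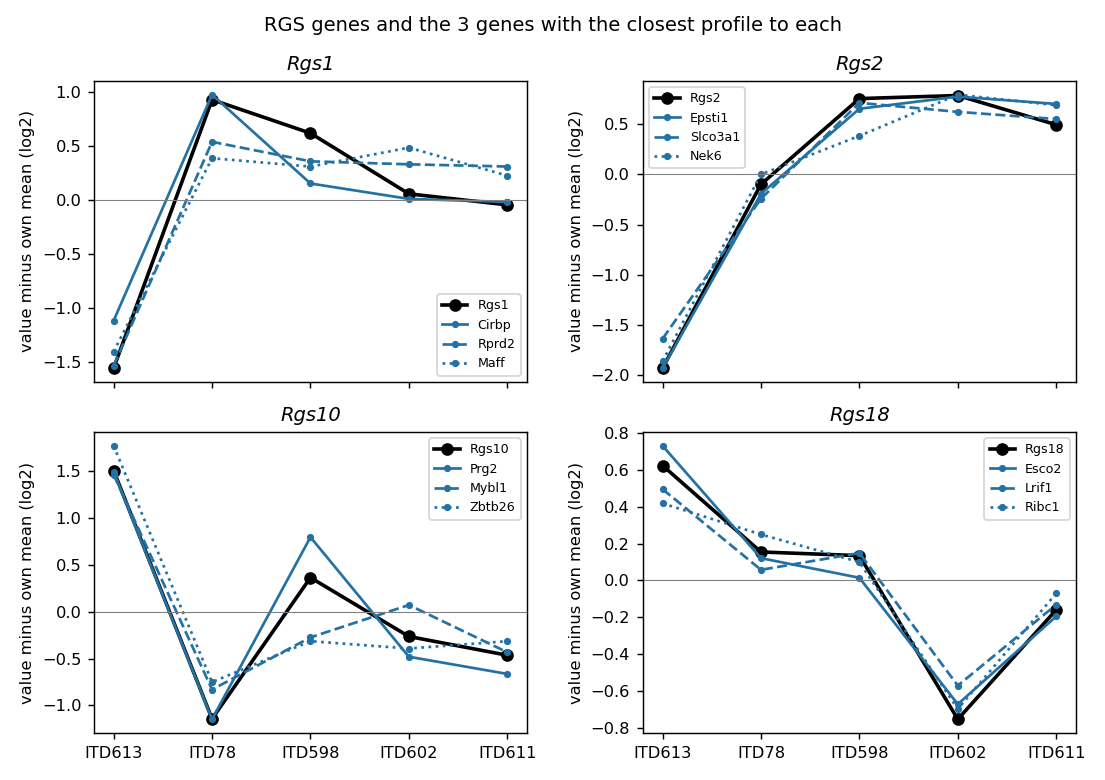
Values minus the gene's own mean over the 5 arrays (log2) for Rgs1, Rgs2, Rgs10 and Rgs18 (black) and the 3 genes with the smallest RMS difference to each (blue). Lines only join the points of a gene. The Rgs18 and Rgs2 panels show closer profiles (RMS 0.08 to 0.19) than the Rgs1 and Rgs10 panels (0.23 to 0.38). All ITD613 values in the Rgs2 panel come from the low range.

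The genes around the RGS proteins in the pathway were taken from 7 lists of 125 symbols, older synonyms included, with 111 on the array and 51 above the filter. Of these 51, 3 were apart on ITD613 (5.88%, against 2.23% of all genes) and 7 had a 2-fold range (13.7%, against 10.4%). Those 3 were all receptors, 1 higher and 2 lower, out of 11 receptor genes that passed. The lists were chosen with earlier results of these data known, so nothing is read from the difference in shares. Among the 3, P2ry14 was apart by low-range values, 1.16 on ITD613 and 2.20 on ITD78, the nearest array. With low values raised to the top of the low range, 2 pathway genes were apart on ITD613, P2ry1 and Ptger4.

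Among receptors, P2ry14, which binds UDP-glucose, read 1.16 on ITD613, 2.20 on ITD78, 4.50 on ITD598, 4.82 on ITD602 and 4.69 on ITD611. ITD613 and ITD78 were both in the low range, so the 2 arrays cannot be ordered, but each was below the other three. Ptger4, the EP4 receptor for prostaglandin E2, read 3.99 on ITD613, 5.08 on ITD78, 5.35 on ITD598, 5.30 on ITD602 and 5.36 on ITD611, low on ITD613 alone. P2ry1, the ADP receptor that couples to Gq, read 4.94 on ITD613, 3.87 on ITD78, 3.47 on ITD598, 2.91 on ITD602 and 3.47 on ITD611, high on ITD613. Its values on ITD598, ITD602 and ITD611 are in the low range, and its range with values raised to 3.74 was 1.21. Lpar6, a receptor for lysophosphatidic acid, read 3.23 on ITD613, in the low range, 4.18 on ITD78 and 4.67 to 4.77 on the other 3. Cxcr4, the receptor for the chemokine CXCL12, was named after its values were seen and read 4.55 on ITD613, 3.97 on ITD78, 3.66 on ITD598, 3.47 on ITD602 and 3.30 on ITD611. The ITD598, ITD602 and ITD611 values of Cxcr4 are in the low range. With values raised to 3.74 its range was 0.81, under 2-fold.

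Of the 10 G alpha subunit genes that passed, only Gnaq, a substrate of Rgs2, had a 2-fold range. It read 4.92 on ITD613, 6.21 on ITD78, 5.68 on ITD598, 5.42 on ITD602 and 5.42 on ITD611, lowest on ITD613 and highest on ITD78, and 6 of its 7 probe sets had ITD613 below the mean of the other arrays. None of the 6 G beta and gamma subunit genes had a 2-fold range, and ITD613 differed from the others by a median of -0.27. Of the 9 effector genes, only Pik3cg, the PI3-kinase that G beta-gamma activates, had one: 5.43 on ITD613, 5.46 on ITD78, 5.95 on ITD598, 6.46 on ITD602 and 6.22 on ITD611. ITD613 and ITD78 were equal within 0.03 and below the other three.

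No 2-fold range was seen among the 10 other genes with an RGS domain that passed, such as the G-protein-coupled receptor kinases, nor among the 4 G alpha exchange and activator genes. The list of other RGS family genes had 12 with a probe set, counting Rgs7bp and Rgs9bp, which encode RGS-binding proteins and not RGS proteins. Of these only Rgs9, the RGS protein of photoreceptors and striatum, passed. It read 4.30 on ITD613, 4.40 on ITD78, 4.35 on ITD598, 4.22 on ITD602 and 4.30 on ITD611, a flat profile, and the rest read at most 2.27 (Rgs7bp).

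The myeloid progenitor markers were on average lowest on ITD613, with ITD78 next, as was Rgs2. Over all 12 markers the mean value was 3.62 on ITD613, 3.80 on ITD78, 4.43 on ITD598, 4.55 on ITD602 and 4.34 on ITD611, and 5 of the 7 that passed were lowest on ITD613. Among those 7, Mpo was lowest on ITD78 (4.52, with 5.18 on ITD613). Il3ra was highest on ITD613 (3.69) and in the low range on all arrays. The part of the markers in the RGS differences was not tested. Lymphoid markers averaged 1.40 on ITD613 and 1.44 to 1.54 on the other arrays, and fibroblast markers 1.39 on ITD613 and 1.48 to 1.61 on the others, in the low range throughout.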

How the data were processed

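Total RNA of 5 FLT3-ITD lines was hybridised to Affymetrix GeneChip mouse arrays, 1 per construct. The authors deposited log2 values from RMA, per the submitters' processing notes; its version and chip definition are not given in the sources used here. That the base is 2 follows from their span (-0.07 to 13.45), and the zero point is not stated. Probe sets were named from the platform annotation (34945 with 1 gene), and the gene IDs of all 21 RGS probe sets matched RefSeq (GRCm38.p6) under the same symbol. Calculations used Python 3.11.15 and pandas 2.3.3. The code of the size rules was run on simulated data with shifts well above the threshold and little noise. That run says nothing of how the rules behave on these arrays. With 1 array a construct no test was possible, so a gene was called apart where it lay at least 1 (log2) beyond all other arrays. The RGS genes and all gene lists were chosen with earlier results of these data known. Named beside the 9 genes were, per list, up to 4 genes with the widest range of at least 2-fold, and the 3 closest profiles per RGS gene with such a range, RIKEN and Gm-numbered symbols left out. The depth of an array is its number of probes, and 1 array per construct limits the precision. 0 columns were left unused. Alternatives were other summaries, filters, scalings and thresholds and leaving out each array.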

Additional observations from a re-analysis of the deposited data

How the results depend on the processing

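ITD613 set apart 3 RGS genes in 11 of 12 alternatives, and the exception was raising low values to 3.74, which left 1, Rgs2. By the construction of that setting, Rgs1 and Rgs10 lost size because some of their values lie in the low range: their differences from the mean of the other arrays became -0.69 and 0.81. The count on ITD78 was 0 except at a threshold of 1.5-fold, where it was 1 (Rgs10, lower, on low-range values). The number of RGS genes with a 2-fold range was 4, and it was 3 or 4 in every 2-fold alternative that kept the ITD613 array. Without the ITD613 array the number was 1 (Rgs10, with low-range values only). At the threshold of 1.5-fold, 6 RGS genes had a range of that smaller size. Pathway genes apart on ITD613 numbered 2 to 4. P2ry14 was not apart with low values raised, with arrays centred on their medians or with a second quantile normalization, and Ptger4 was not with the mean of probe sets. Of 162 single differences under these settings, 155 moved by less than the SD of the other arrays, 7 moved by more and none of those of at least 2-fold changed sign. With the mean of probe sets the Rgs2 difference on ITD613 was -1.83. No paired analysis was possible because each construct had 1 array and the labels give no replicate numbers. Signal over background limits Rgs1, Rgs10, Rgs12 and Rgs16.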
